A study of Caenorhabditis elegans with 6 samples.

Results

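The data described here concern 104 genes whose signal was lower in cells with 19 glutamines than in cells with GFP only, and lower again in cells with 128 glutamines, on the arrays used to choose them. They were taken from 7477 genes that could be named on a microarray of Caenorhabditis elegans, which is 1.39% of those genes. The members were chosen by their measured log ratios on 5 arrays. A gene was taken when the ratio of 128Q over 19Q was -0.5 or less on each of 3 arrays, and the ratio of 19Q over GFP was so on its replicates 1 and 2. Genes of several families, such as the nlp and npr genes, were left out by their symbols. The low values on these 5 arrays describe the choice and are not a finding. Replicate 3 of 19Q over GFP is the only array that the choice did not use.

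The cells were touch receptor cells, the neurons by which the worm senses gentle touch to its body. They came from dissociated embryos, were kept in culture overnight and were sorted by their green fluorescence. The 128Q cells carried an N-terminal fragment of human huntingtin with an expanded stretch of 128 glutamines, the 19Q cells carried the same fragment with a normal stretch of 19, and both fragments were fused to a fluorescent protein. The control cells, called GFP here, carried the fluorescent protein without huntingtin, and the mec-3 promoter drove all of these transgenes. Each array compared a pair of cell populations in 2 colours, and each of the comparisons, 128Q over 19Q as well as 19Q over GFP, had 3 arrays. A negative value means a lower signal in the cells named first. The values are log ratios in the deposited unit, whose log base the sources do not state, so they are not turned into folds. The 19Q cells stand in both comparisons, named second in one and first in the other, so the values of the 2 comparisons are not independent of each other and are given side by side. Fewer cells of a type in the sorted population and less RNA per cell cannot be told apart.

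Expanded polyglutamine stretches in huntingtin cause Huntington disease, and worms that carry such a fragment in touch receptor neurons lose part of their response to touch. The mec-3 gene encodes a transcription factor needed for these neurons to take on their identity. None of the 10 touch receptor neuron markers that were listed had a named probe. The same held for the 16 listed markers of muscle, intestine, hypodermis, pharynx, germ line and other neurons. This is a limit of the gene names, since most probes carried none, and the identity of the cells was not checked here. The study's own list of genes lower with the expanded fragment than with the normal one includes several mec genes. Whether the members' low values go with a change in the identity of the sorted cells was not tested.

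Across the whole series, the 3 arrays of 128Q over 19Q resembled each other, with Pearson correlations across named genes from 0.734 to 0.785. The arrays of 19Q over GFP did so less: the correlation was 0.516 between replicates 1 and 2, 0.275 between replicates 1 and 3, and 0.0613 between replicates 2 and 3. These correlations are across genes, which are not independent replicates.

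Of the named genes, 720 met the cut-off on the 3 arrays of 128Q over 19Q and 450 met it on both arrays of 19Q over GFP. Both conditions held for 109 genes, which was 15.1% of the first list and 24.2% of the second, and 5 of them were left out by symbol. All 104 members were measured on all 6 arrays, each by 1 probe. The gene table gave 102 as protein-coding and 2, K02E7.5 and K02B9.3, as pseudogenes. Only 19 had a gene name, and 85 were known by a sequence name alone, so for most of them no role can be given. The share of sequence names among all named genes was not counted, so this cannot be read as a trait of the members.

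The members spanned a wide range. On 128Q over 19Q their median was -1.40 on replicate 1, -1.40 on replicate 2 and -1.68 on replicate 3, and the lowest single value was -4.08. On 19Q over GFP the median was -1.02 on replicate 1 and -1.32 on replicate 2, and the lowest value was -6.02. The step from 19Q to 128Q had the lower mean in 68 members and the step from GFP to 19Q, over replicates 1 and 2, in 36. In 38 members the means of both steps lay within 0.5 of each other. These counts compare the deposited units directly. The SD over probes was 1 on 4 arrays, and 0.783 and 0.81 on replicates 2 and 3 of 128Q over 19Q. The comparisons may therefore not share a scale, and the counts were not repeated on scaled arrays.

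**Figure D1:**
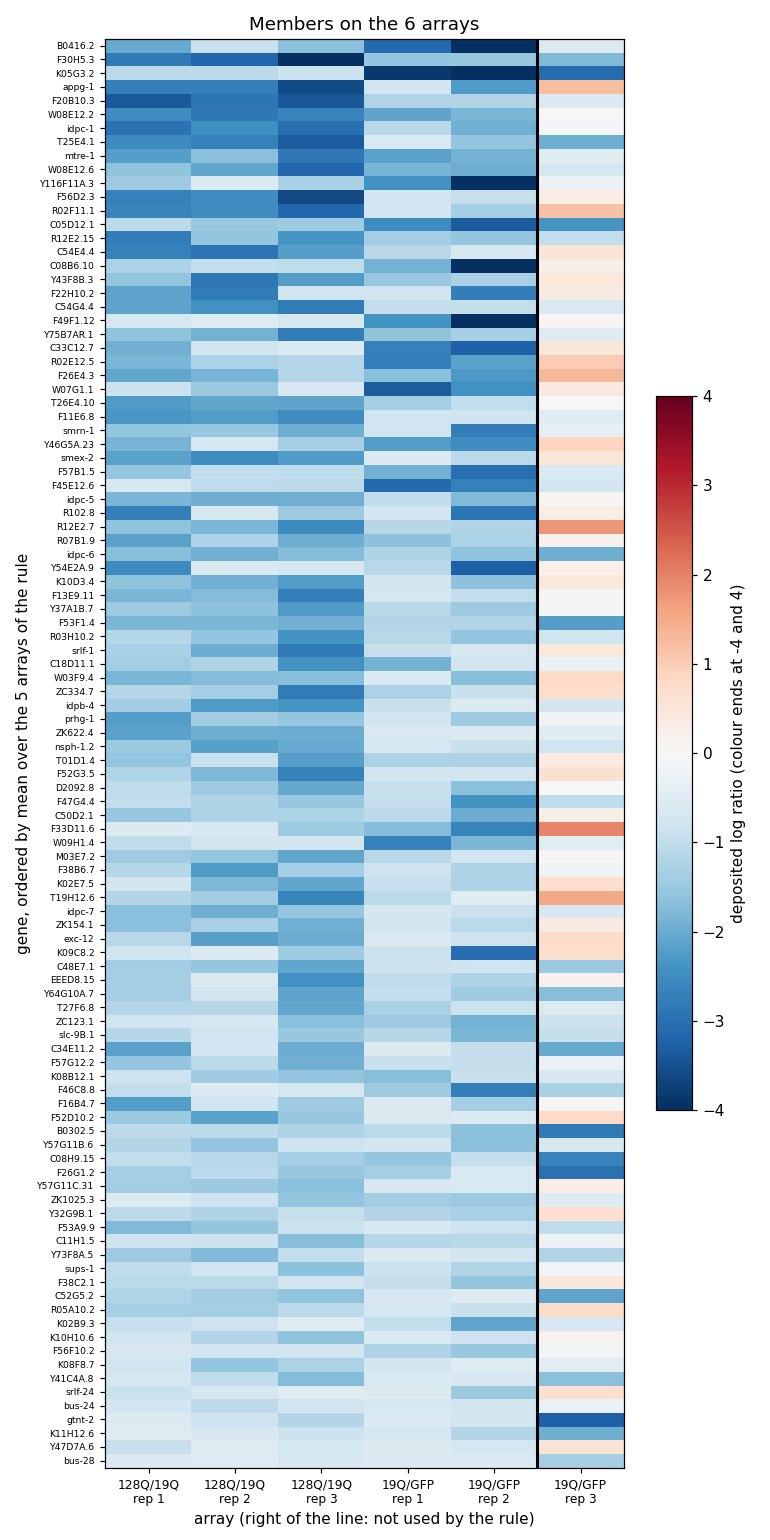
Deposited log ratios of the 104 members (rows, ordered by their mean over the 5 arrays of the rule) on the 6 arrays (columns), blue for negative and red for positive values. All values left of the black line are -0.5 or less by the rule, while the column to its right, replicate 3 of 19Q over GFP, runs from -3.25 to 1.94.

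**Figure D2:**
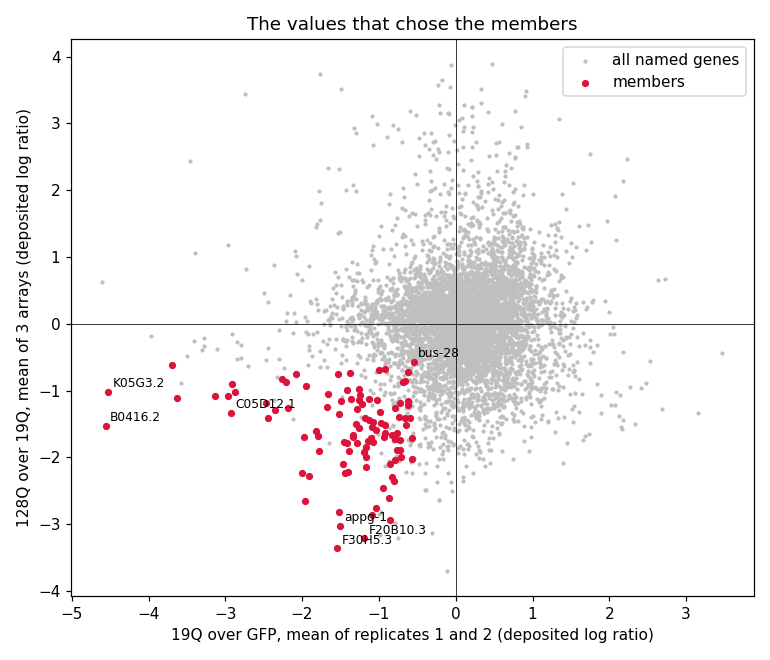
Mean log ratio of 128Q over 19Q (3 arrays, vertical axis) against the mean of replicates 1 and 2 of 19Q over GFP (horizontal axis) for all named genes in grey and the members in red. The members fill the lower left corner by construction, with K05G3.2 and B0416.2 at its left end and F30H5.3 at its lower end.

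On the array that the choice did not use, the picture was mixed. On replicate 3 of 19Q over GFP, 59 of the 104 members (56.7%) lay below 0, against 47.5% of the 7459 named genes measured there. At -0.5 or less were 41 members (39.4%), against a background of 24.9%. The members' median was -0.16 and that of all named genes 0.06. Of the members, 20 (19.2%) were at 0.5 or more, against 27.5% of named genes. So 45 members did not lie below 0 on the one array outside the choice, and for these the order from GFP to 19Q rests on replicates 1 and 2.

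The members were set beside genes that met 1 condition alone. The 341 genes that were low on replicates 1 and 2 of 19Q over GFP, but not on all arrays of 128Q over 19Q, had a median of -0.14 on replicate 3 and 35.8% were at -0.5 or less. The 610 genes that were low on 128Q over 19Q alone, and measured on replicate 3, had a median of 0.07 and 23.4% at -0.5 or less. The members' median and share were near those of the first set. This is 1 array, so there is no test of these differences.

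**Figure D3:**
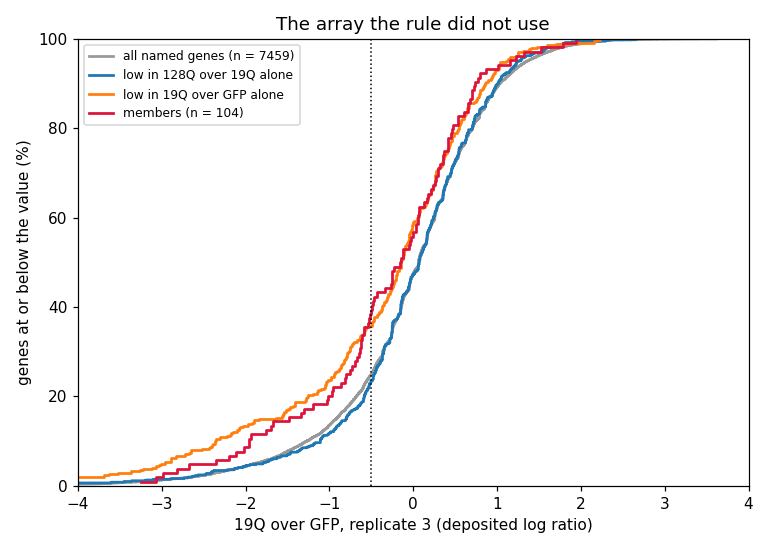
Share of genes at or below each value on replicate 3 of 19Q over GFP, for all named genes (grey), genes low in 128Q over 19Q alone (blue), genes low in 19Q over GFP alone (orange) and the members (red), with a dotted line at -0.5. At that line the members reach 39.4% and all named genes 24.9%, and the blue curve runs close to the grey one.

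A linear model (limma) was fitted across all 22562 probes, with probes of 1 gene averaged. Its calls among the members rest largely on the values that made the choice, so they are descriptions. Both comparisons share 1 estimate of the spread of a feature. A call in 128Q over 19Q thus also depends on the spread of 19Q over GFP, replicate 3 included. For example, F49F1.12 had an SD of 0.09 on 128Q over 19Q and of 2.54 on 19Q over GFP. Its adjusted p for 128Q over 19Q was 0.725 (limma). At an adjusted p under 0.01, 21 of the 104 members were lower in 128Q than in 19Q, beside 1.17% of the 22033 features tested, and none was higher. At an unadjusted p under 0.05 there were 89, beside 13.1% of features, and an adjusted p under 0.05 was reached by 62, beside 5.59%. In 19Q over GFP this fit called no member and no other feature lower (0.0% of 21897). The study's own test, which was not rerun here, did call genes in this comparison. Most of those were lower, and some members are among them. In the fit used here, the lowest adjusted p of a member in 19Q over GFP was 0.0976. There, 67 members had an unadjusted p under 0.05, where 8.04% of features did so in the lower direction. For 128Q over GFP, which no array measured and which is the sum of both comparisons, 14 members were lower, beside 0.245% of 21642 features. An unadjusted p under 0.05 was reached by 101 members, beside 10.8% of features, and an adjusted p under 0.05 by 73, beside 2.93%. The count of 21 changed when single arrays were left out: it fell to 0 without any single array of 128Q over 19Q. Leaving out an array of 19Q over GFP gave 6 for replicate 1, 12 for replicate 2 and 57 for replicate 3. The count of 14 was 0 without any of the first 5 arrays and 56 without replicate 3 of 19Q over GFP. Leaving out an array changes the fit for every feature. The shares called over all features in these refits are not given, so the changes cannot be read as particular to the members.

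The lowest member over the 5 arrays was B0416.2. Its values were -2.01, -0.90 and -1.67 on 128Q over 19Q and -3.10, -6.02 and -0.59 on 19Q over GFP. All 6 lay below 0, but the 3 arrays of 19Q over GFP were far apart, and its adjusted p was 0.343 for the first comparison and 0.145 for the second (limma).

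F30H5.3 was the lowest on 128Q over 19Q. It gave -2.84, -3.16 and -4.08 there, and -1.56, -1.53 and -1.76 on 19Q over GFP. Its mean was -3.36 ± 0.64 (SD, n = 3) in the first and -1.62 ± 0.12 (SD, n = 3) in the second. Here replicate 3 was the lowest of the arrays of 19Q over GFP, and the values of that comparison lay close together.

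F20B10.3 gave -3.36, -2.89 and -3.38 on 128Q over 19Q and -1.20, -1.19 and -0.54 on 19Q over GFP. T25E4.1 gave -2.54, -2.71 and -3.33, and then -0.62, -1.57 and -1.94. Both were below -0.5 on every array, including replicate 3, and both were among the 21 members called in 128Q over 19Q, with an adjusted p of 0.00176 and 0.00325 (limma).

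The other members called in 128Q over 19Q were C54G4.4, ZK622.4, F53F1.4, R12E2.15, C48E7.1, T26E4.10, Y75B7AR.1, F56D2.3, W08E12.2, F13E9.11, C54E4.4 and, of those with a gene name, idpc-1, idpc-6, idpc-7, idpb-4, nsph-1.2 and smex-2, beside F30H5.3 and F11E6.8. C54G4.4 gave -2.12, -2.43 and -2.80 on 128Q over 19Q and -0.94, -0.96 and -0.62 on 19Q over GFP. ZK622.4 had a mean of -2.03 ± 0.11 (SD, n = 3) there, and then gave -0.60, -0.54 and -0.50. F56D2.3 gave -2.70, -2.50 and -3.62, and then -0.81, -0.92 and 0.29. The first 2 of these genes were below 0 on every array, and in F56D2.3 replicate 3 of 19Q over GFP lay above 0. Among the pseudogenes, K02E7.5 gave -0.74, -1.80 and -2.08, and then -0.93, -1.25 and 0.68. K02B9.3 gave -0.91, -0.83 and -0.53, and then -0.99, -2.08 and -0.68, so that it was low on all 6 arrays. Low on all 6 arrays, at -0.5 or less, were the same 41 members that met the cut-off on replicate 3.

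Of the 36 members with the larger GFP to 19Q step in the deposited unit, 16 were at -0.5 or less on all 6 arrays. Among them were K05G3.2 and C05D12.1. K05G3.2 gave -1.09, -1.09 and -0.87 on 128Q over 19Q, against -3.85, -5.21 and -3.07 on 19Q over GFP. C05D12.1 gave -1.06, -1.51 and -1.42, against -2.52, -3.32 and -2.35. In both genes all 3 arrays of 19Q over GFP lay below all 3 of 128Q over 19Q. Both shared the lowest adjusted p of any member in 19Q over GFP, 0.0976 (limma), which does not pass the threshold. The study's own test called both genes lower in 19Q than in GFP.

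Other members of the 36 were at -0.5 or less in 19Q over GFP on replicates 1 and 2 but not on replicate 3. Y116F11A.3 gave -2.43 and -4.84 on them and -0.23 on replicate 3. F49F1.12 gave -2.39, -5.01 and 0.07, and C08B6.10 gave -1.88, -4.39 and 0.27. R02E12.5 was at -2.73, -2.15 and 1.01, so that the third array lay on the other side of 0.

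The highest members on replicate 3 were F33D11.6 at 1.94, R12E2.7 at 1.78, T19H12.6 at 1.52 and F26E4.3 at 1.32. Their values on replicates 1 and 2 were -1.74 and -2.68, -1.15 and -1.19, -1.09 and -0.50, and -1.68 and -2.29. At the other end were gtnt-2 at -3.25, K05G3.2 at -3.07, F26G1.2 at -2.99 and B0302.5 at -2.82. For gtnt-2, F26G1.2 and B0302.5 replicate 3 was lower than replicates 1 and 2, which lay between -0.57 and -1.64.

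Among the gene classes counted here, which were picked by symbol and are not all classes, idpc had the most members relative to its size. This order uses the values that chose the members. All 5 of its named genes were below 0 on the 3 arrays of 128Q over 19Q, and 4 were members: idpc-1, idpc-5, idpc-6 and idpc-7. Of all named genes, 41.2%, 50.1% and 46.8% were below 0 on replicates 1, 2 and 3 of this comparison. The share below 0 on all 3 was not counted. idpc-1 gave -2.95, -2.46 and -3.02 on 128Q over 19Q, and -1.12, -1.92 and -0.04 on 19Q over GFP. idpc-2 was left out by a single array, since replicate 1 of 19Q over GFP was -0.38, with -1.19 on replicate 2 and 0.27 on replicate 3. Of the 5, 4 were called lower in 128Q than in 19Q and the fifth, idpc-5, had an adjusted p of 0.0148 (limma). Over all features tested 1.17% were called lower, and the calls of the idpc members use the values that chose them.

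The idpc members idpc-7, idpc-6 and idpc-5 follow each other in the order of protein-coding genes on chromosome V. idpc-7 gave -1.67, -1.96 and -1.54 on 128Q over 19Q and -0.70, -0.88 and -0.62 on 19Q over GFP. idpc-6 gave -1.70, -1.93 and -1.73, and then -1.23, -1.61 and -1.96. idpc-5 gave -1.84, -1.96 and -1.92, and then -1.01, -1.76 and 0.06. The 9 values of 128Q over 19Q in these genes lay between -1.54 and -1.96, while replicate 3 of 19Q over GFP separated idpc-6 from idpc-5. T06E4.7, the nearest gene on the idpc-5 side with a named probe, gave -0.24, -0.10 and 0.62, and then -0.37, -0.39 and 0.34. No gene beyond idpc-7 is given here, so these values do not show where the low stretch ends on that side. Genes that lie in a row can share sequence, and whether one probe also detects the other genes was not tested.

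**Figure D4:**
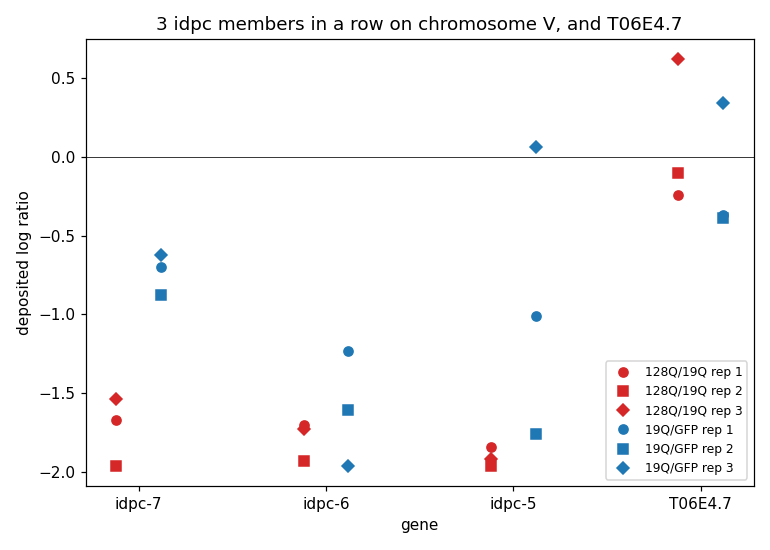
Deposited log ratios of idpc-7, idpc-6, idpc-5 and T06E4.7 with the arrays of 128Q over 19Q in red and those of 19Q over GFP in blue, with 1 marker shape per replicate. The idpc genes lie between -1.54 and -1.96 on 128Q over 19Q, and T06E4.7 between -0.24 and 0.62.

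Of 5 named idpb genes, 4 were below 0 on the 3 arrays of 128Q over 19Q, again with no share over all named genes to set beside it. The means of the class ran from -2.12 to 0.42, beside -2.81 to -1.72 for the idpc genes. Means of 128Q over 19Q were -2.10 for idpb-1, -1.51 for idpb-2 and -2.12 for idpb-5, which was called lower with an adjusted p of 0.00653 (limma). Only idpb-4 was a member, at -1.38, -2.26 and -2.36 there and -0.89, -0.54 and -0.73 on 19Q over GFP. idpb-3 was the exception, at 0.57, -0.06 and 0.76. Of 3 named idpa genes none was a member, although idpa-3 gave -2.31, -2.37 and -2.45 on 128Q over 19Q.

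The bus genes were named from worms that resist a bacterial infection of the cuticle. All 6 named bus genes were below 0 on the 3 arrays of 128Q over 19Q, with means from -1.53 to -0.55. None passed an adjusted p under 0.01 (limma). On these arrays 41.2%, 50.1% and 46.8% of named genes were below 0, and the share on all 3 was not counted. The class holds members, which were chosen by low values here. bus-24 gave -0.76, -1.04 and -0.80, and then -0.64, -0.73 and -0.26. bus-28 gave -0.55, -0.51 and -0.65, and then -0.56, -0.54 and -1.34. Both members were near the cut-off. bus-5, which had the lowest mean of the class, was no member because it gave -0.34, -0.36 and -0.09 on 19Q over GFP. The class was mixed in that comparison, where 4 of the 6 genes had a mean below 0 over replicates 1 and 2. On its 3 arrays bus-6 gave 0.13, 0.54 and 0.54, and bus-22 gave 0.26, 0.27 and 0.26.

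Among the members with a better known role was slc-9B.1, of the family of sodium and proton exchangers. It gave -1.14, -0.80 and -1.53 on 128Q over 19Q and -1.14, -1.84 and -0.96 on 19Q over GFP. It lay below -0.5 on all 6 arrays. The other named gene of the class, slc-9B.2, went the other way, at 1.23, 0.08 and 0.48, and then 0.89, 0.27 and 1.47. exc-12 bears the name of a class found through defects of the excretory canal, and gave -1.10, -2.16 and -1.97 and then -0.62, -0.84 and 0.73. Of the 5 named exc genes it was the only member.

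**Figure D5:**
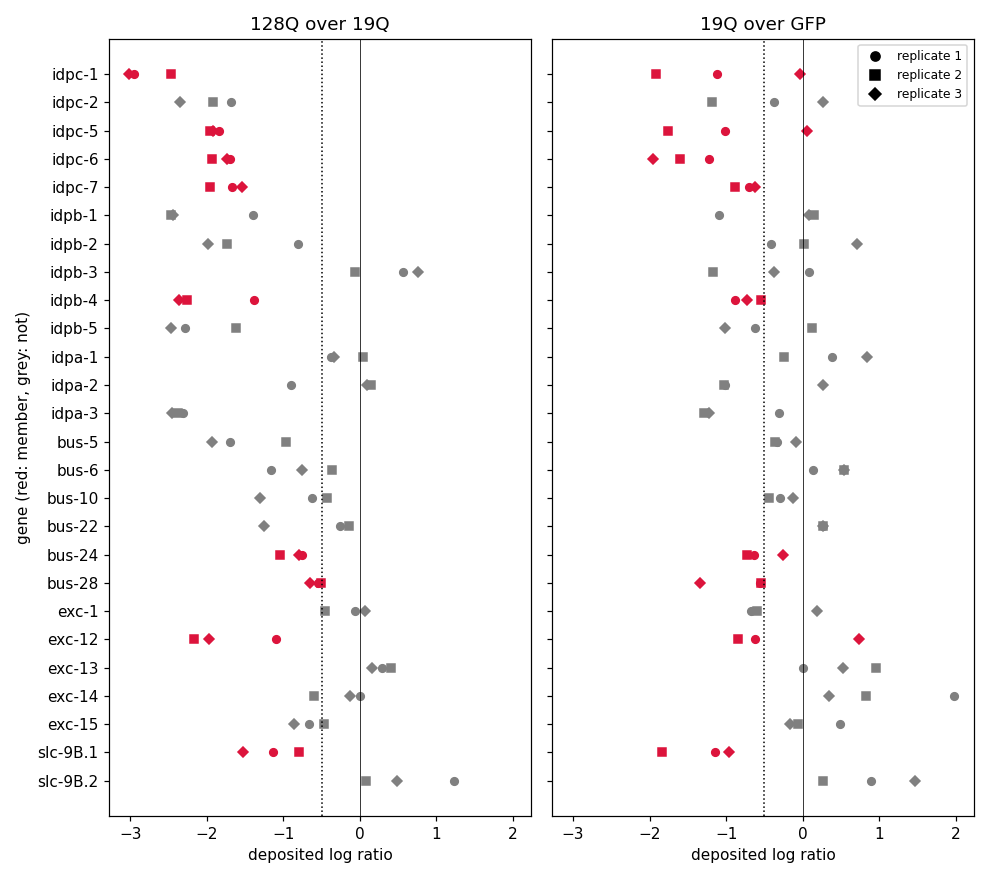
Deposited log ratios of all named idpc, idpb, idpa, bus, exc and slc-9B genes with the 3 arrays of 128Q over 19Q on the left and those of 19Q over GFP on the right, members in red, the others in grey, and a dotted line at -0.5. The idpc and bus genes lie left of 0 on all arrays of 128Q over 19Q, and slc-9B.2 lies right of 0 on all 6 arrays.

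F11E6.8, a relative of receptor tyrosine kinases by its annotation, gave some of the most even values. It was at -2.34, -2.22 and -2.50 on 128Q over 19Q and at -0.81, -0.80 and -0.50 on 19Q over GFP. Its adjusted p of 0.00176 in 128Q over 19Q was the lowest of any member, a value it shared with F20B10.3 (limma). nsph-1.2, of a nematode-specific peptide family, gave -1.48, -2.18 and -2.02, and then -0.66, -0.88 and -0.81. The other named genes of its class were not low, with means on 128Q over 19Q of 0.05 for nsph-3.1 and 0.78 for nsph-2.

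The remaining members with a gene name are given without a role. appg-1 was at -2.74, -2.73 and -3.59 on 128Q over 19Q, and at -0.76, -2.26 and 1.22 on 19Q over GFP. mtre-1 was at -2.19, -1.66 and -2.87, and then at -2.13, -1.88 and -0.48. smex-2 was at -2.13, -2.49 and -2.27, and then at -0.58, -1.07 and 0.47. Replicate 3 lay above replicates 1 and 2 in all 3 of these genes, as it did in 84 of the 104 members. The rule asked for low values on replicates 1 and 2 and not on replicate 3, which favours this order. The share over all named genes was not counted. Mean values of 128Q over 19Q were -2.04 for srlf-1, -1.71 for prhg-1, -1.68 for smrn-1, -1.15 for sups-1 and -0.69 for srlf-24. On replicate 3 of 19Q over GFP these genes gave 0.41, -0.15, -0.34, -0.12 and 0.66.

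The members with the most even values on 128Q over 19Q were idpc-5, F53F1.4, F56F10.2, bus-28, W03F9.4 and F49F1.12, whose SD over the 3 arrays was between 0.06 and 0.09. F53F1.4 was at -1.82, -1.82 and -1.92, and at -1.16, -1.18 and -2.20 on 19Q over GFP. W03F9.4 was at -1.84, -1.73 and -1.69, but at -0.58, -1.70 and 0.79 on 19Q over GFP. Over all members the median SD was 0.39 on 128Q over 19Q and 0.77 on 19Q over GFP, and over all named genes 0.26 and 0.47.

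Just inside the cut-off were K08F8.7, srlf-24 and T19H12.6, whose highest values on the 5 arrays were -0.501, -0.502 and -0.502. Just outside were F58H7.1, W01C8.5 and ZK470.1 at -0.499, -0.488 and -0.487. W01C8.5 gave -1.08, -1.91 and -2.23 on 128Q over 19Q, and its mean of -1.74 lay below the members' median of -1.52.

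By position, the members lay on all 6 chromosomes. There were 16 on chromosome I, 22 on II, 6 on III, 19 on IV, 19 on V and 22 on X. This is 1.51%, 1.67%, 0.622%, 1.52%, 1.10% and 1.93% of the named genes on each, so that chromosome III had the lowest share and X the highest. Besides the idpc genes, 3 pairs of members lay near each other in gene order: R12E2.15 and R12E2.7 on I and idpb-4 and K08F8.7 on II with 2 coding genes between, and W08E12.6 and W08E12.2 on IV with 3 between.

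W08E12.6 gave -1.62, -2.09 and -3.14 on 128Q over 19Q and -1.87, -1.95 and -0.70 on 19Q over GFP. W08E12.2 gave -2.50, -2.85 and -2.63 there, and -2.11 and -1.83 on 19Q over GFP for replicates 1 and 2, with replicate 3 near 0. R12E2.15 gave -2.76, -1.59 and -2.35, and then -1.35, -1.54 and -0.97. R12E2.14 and R12E2.6 lie between the R12E2 members. In 128Q over 19Q, R12E2.14 was below 0 on replicate 1 and at 0.77 and 0.55 on replicates 2 and 3, with a mean of 0.11, but it was low on all arrays of 19Q over GFP, at -1.39, -1.30 and -1.56. R12E2.6 gave -0.66, -0.47 and 1.02, and then -1.13, -1.11 and -0.19. Both genes were low on replicates 1 and 2 in 19Q over GFP and mixed in 128Q over 19Q.

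Of the named genes next to a member that were not members themselves, 78 were measured on the 5 arrays. Their median was -0.12 on 128Q over 19Q, beside 0.07 over all named genes. For 19Q over GFP, replicates 1 and 2, it was 0.04, beside 0.11. On all 3 arrays of 128Q over 19Q, 24.4% of these neighbours met the cut-off of -0.5, against 9.56% of named genes. On replicates 1 and 2 of 19Q over GFP 12.8% did so, against 6.11%. Because members were excluded, a neighbour that met both cut-offs could only be a gene left out by its symbol. The only such neighbour was idpp-12.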

How the data were processed

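RNA of sorted touch receptor cells was amplified in 1 linear round and hybridised to 2-colour arrays, with the cells named first in Cy5. The authors deposited 1 score per probe and array, a log ratio whose log base, background correction, normalization and merging of dye swaps were not stated in the sources. The standard deviation was 1 on 4 arrays and 0.783 and 0.81 on the other two. Depth does not apply, and 3 arrays per comparison limit the precision. The labels call the arrays biological replicates, and the methods describe independent experiments.

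Of 22562 probes, 7718 carried a single gene name and were averaged per gene (7477 genes), and names were updated through the RefSeq gene table of assembly WBcel235, which 7691 probes matched. The array files name no genome build, so no coordinates are given. R 4.3.3 and limma 3.58.1 (with statmod 1.5.0) fitted both comparisons jointly to features with 3 values each, with Benjamini-Hochberg adjustment and a threshold of 0.01. The authors' own mixture-model test was not used. On simulated data for 128Q over 19Q (21642 features, 200 changed), 0, 84 and 175 changes of size 1, 2 and 4 were recovered, with 0, 2 and 3 false calls. The simulated noise was normal, with 1 pooled SD per feature for all 6 arrays. In the data the median SD over named genes was 0.26 on 128Q over 19Q and 0.47 on 19Q over GFP. The recovery in the real data may therefore differ.

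The members and lists were chosen with earlier results of these data known. Genes were named by rule: those with a gene name, the 12 lowest, the 4 lowest and 4 highest on replicate 3 of 19Q over GFP, the 3 on each side of the cut-off, neighbours in gene order, those in the study's gene lists and the 6 with the smallest SD. F11E6.8, whose annotation came from the study's supplement, and the class mates and neighbours that are not members were named after their values were seen. Protein and promoter features and sequence similarity were planned, and not run because no sequences were used here. Classes were formed by symbol alone. Alternatives covered the fit, scaling, probe sets, thresholds, a replicate block and each array left out.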

Additional observations from a re-analysis of the deposited data

How the results depend on the processing

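The 19Q over GFP count of members called lower was 0 under every alternative run. The 128Q over 19Q count of 21 stayed within 1.5 times under separate fits, robust moderation, centring, scaling, at least 2 of 3 values and without 244 evenly spaced low unnamed probes. It was 35 among named genes alone and 62 at an adjusted p under 0.05, and it ranged from 0 to 57 with 1 array left out. The 128Q over GFP count of 14 became 34 among named genes alone, 24 without the low probes and 73 at an adjusted p under 0.05, with a range from 0 to 56 when 1 array was left out. The causes were not tested. Shares over all features are not given for the refits, so the changes cannot be read as particular to the members. With the replicate number as a block the counts were 7 and 0. Same-numbered arrays deviated with correlations of 0.43, -0.13 and 0.335 over all features and of -0.0383, -0.000412 and 0.00507 without the low probes, so the numbers were not taken to pair the arrays. The number of members, 104, was 23 at a cut-off of -1 and 41 when replicate 3 of 19Q over GFP was required as well. With 1 array left out of the rule, so that fewer conditions apply, it was 162 without replicate 1 and 161 without replicate 2 of 19Q over GFP, and it stayed within 1.5 times without any one array of 128Q over 19Q. After centring it was 129 and after centring and scaling 149, both including all 104. At -0.5 or less on replicate 3 were 45 members after centring and 32 after scaling, beside 27.9% and 21.3% of named genes.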

Other observations

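Of 14844 unnamed probes, 205 met the cut-offs on the same 5 arrays, by which they were chosen. On replicate 3 of 19Q over GFP, 64 of them (31.2%) were at -0.5 or less, and their median was -0.13. The share over all unnamed probes on this array was not counted, so these values have no background here.

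The 5 named genes that met the cut-offs and were left out by symbol were cpg-19, dbd-14, dbd-19, idpp-12 and nssp-8. On replicate 3 of 19Q over GFP they gave 0.17, 0.35, -0.15, -2.64 and -0.58. idpp-12 lies on chromosome IV, as do W08E12.6 and W08E12.2.

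Some unnamed probes were far below 0 at evenly spaced probe numbers on replicate 1 of 128Q over 19Q and replicates 1 and 2 of 19Q over GFP. Member probes lay 1 or 7 numbers away from such a probe in 4 of 104 cases (3.85%), against 1.90% of named probes. Counting a distance of 2 as well, it was 9 of 104 (8.65%), against 4.17%. Both distances were chosen after the data were seen, and the part of these probes in the members' values was not tested.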
